A study of Mus musculus with 4 samples.

Results

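The variable segments of the T cell receptor beta chain (Trbv genes) were examined in single-cell RNA data of immune cells from mouse mammary tumours. All 35 genes whose symbol starts with Trbv were taken from the 32285 genes of the deposited matrices, and each T cell was assigned to the Trbv with the most unique molecular identifiers (UMIs, 1 per captured transcript molecule). The tumours were of 2153L, a genetically engineered mouse (GEM) mammary tumour, placed in the mammary fat pad of BALB/c females, and CD45+ cells, the immune cells, were sorted from them by flow cytometry. All 4 groups carried this tumour and were treated for 8 days. One received vehicle, another ORIN1001 (150 mg/kg), another docetaxel (20 mg/kg), and the combination group received both agents at these doses. ORIN1001 is an inhibitor of the RNase activity of IRE1 alpha, a sensor of unfolded proteins in the endoplasmic reticulum, and docetaxel is a taxane that stabilises microtubules. Each group is 1 library, the labels do not say how many animals it pools, and differences between treatments have no replicate check and no test. Shares carry exact (Clopper-Pearson) 95% binomial intervals, which cover the counting of cells only. Where 0 cells were found, the share that this count allows is given as 3 cells of the total.

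The beta chain of the alpha-beta T cell receptor is assembled in the thymus by joining 1 variable (V), 1 diversity and 1 joining segment, which are then spliced to a constant gene, Trbc1 or Trbc2. Each T cell keeps its joined segments and passes them to its daughters, so a clone that expands raises the share of its Trbv among the cells of a tissue. The alpha chain is built in the same way from Trav segments, and the pair of chains sets what the cell recognises. BALB/c mice carry endogenous mammary tumour viruses whose superantigens delete developing T cells that use certain V segments, so some Trbv are rare in this strain from the start. The V segment alone does not identify a clone, because the junction that makes most of the specificity was not read here.

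The closely related segments Trbv13-1, Trbv13-2 and Trbv13-3 held between 35.1% and 41.1% of assigned cells in the 4 libraries, so their likeness bears on the counts. The last 90 bases of each V exon up to the cysteine codon that opens the junction are shown as annotated in GENCODE M21 on GRCm38/mm10, plus strand, with the bases that are not the same in all 3 segments in capitals. Trbv13-1 lies at chr6:41116366-41116455, Trbv13-2 at chr6:41121730-41121819 and Trbv13-3 at chr6:41130483-41130572.
Trbv13-1: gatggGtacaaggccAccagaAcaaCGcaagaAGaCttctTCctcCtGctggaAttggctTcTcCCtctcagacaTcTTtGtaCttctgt
Trbv13-2: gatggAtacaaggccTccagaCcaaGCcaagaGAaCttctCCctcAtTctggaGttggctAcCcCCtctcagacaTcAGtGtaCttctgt
Trbv13-3: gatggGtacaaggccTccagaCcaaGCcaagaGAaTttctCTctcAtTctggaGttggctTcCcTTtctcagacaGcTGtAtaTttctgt
The 3 segments differ at 22 of these 90 positions. Over the last 250 bases before the end of that codon, Trbv13-2 and Trbv13-3 were identical at 91.2% of positions, the highest of 231 pairs among 22 V exons, whereas the median pair was identical at 35.6%. Trbv13-2 and Trbv13-3 shared 1 exact stretch of 50 bases, and no other pair of V exons shared any. By this reference, reads that fall in the differing bases can thus tell the family apart. Whether the segments of these BALB/c mice carry the same bases was not examined. No source used here states how the deposited counting treated reads that fit several members.

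The same stretch is shown for Trbv19 (chr6:41178946-41179035), which led CD8 cells of the combination library, for Trbv2 (chr6:41047892-41047981), found in a large Trav pair, and for Trbv5 (chr6:41062700-41062789), which differed between CD8 and CD4 cells, all on the plus strand with the cysteine codon in capitals.
Trbv19: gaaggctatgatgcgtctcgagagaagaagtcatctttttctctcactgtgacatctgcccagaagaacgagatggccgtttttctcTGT
Trbv2: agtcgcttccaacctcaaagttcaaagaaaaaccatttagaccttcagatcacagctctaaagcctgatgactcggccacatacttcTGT
Trbv5: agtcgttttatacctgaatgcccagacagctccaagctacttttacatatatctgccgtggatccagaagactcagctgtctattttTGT

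T cells were cells with 1 or more UMIs of Cd3d, Cd3e and Cd3g together, which encode the signalling chains of the receptor. The 4 subsets were gated with at least 1 UMI of the naming gene and more CD3 UMIs than myeloid and B cell marker UMIs. CD8 cells had Cd8a or Cd8b1 without Cd4 or Foxp3, conventional CD4 cells had Cd4 without CD8 genes or Foxp3, and Foxp3 cells had Foxp3, the master regulator of regulatory T cells, without CD8 genes. CD8 cells were split by Havcr2, which encodes the inhibitory receptor TIM-3. The regulatory marker list was Foxp3, Il2ra, Ikzf2, Ctla4, Tnfrsf4 and Tnfrsf18. It summed to between 3533 and 5814 CPM (a gene's UMIs scaled to a common total) in Foxp3 cells of the 4 libraries. In conventional CD4 cells it summed to 1004 to 1745 CPM. The gates themselves set Foxp3 present in the former and absent in the latter, so its part of the difference was fixed in advance. Neutrophil genes (S100a8, S100a9, Csf3r, Retnlg) were also present: they summed to 1703 CPM in Foxp3 cells of vehicle, 3408 CPM with ORIN1001, 326 CPM with docetaxel and 88.4 CPM with the combination. In conventional CD4 cells they summed to 925, 584, 94.3 and 182 CPM in the same order. The sums were 1330, 461, 208 and 55.1 CPM in Havcr2-negative CD8 cells and 690, 811, 349 and 117 CPM in Havcr2-positive CD8 cells. The part of neutrophil genes in the results below was not tested.

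Library totals ran from 64257802 to 86383509 UMIs over 8464 to 10362 cell barcodes, and 8146 to 10034 cells per library were kept. Between 96 and 134 barcode sequences occurred in both members of a pair of libraries, at most 1.52% of the smaller library, and 9 of these were gated T cells in both. None of those 9 had the same Trbv in both libraries.

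A Trbv transcript was found in nearly every gated T cell. In vehicle 94.3% (92.3 to 95.9) of 699 gated cells had a Trbv UMI, with ORIN1001 96.4% (94.8 to 97.6) of 747, with docetaxel 94.8% (93.2 to 96.1) of 961 and with the combination 95.4% (94.4 to 96.3) of 1991. These intervals overlapped. Among all cells with a CD3 UMI, with no further gate, the share was lower: 53.8% in vehicle, 62.2% with ORIN1001, 65.7% with docetaxel and 72.6% with the combination. Cells expected to lack the gene set the background. Of CD3-negative cells with Csf3r, a neutrophil receptor gene, 0.875% had a Trbv UMI in vehicle, 1.17% with ORIN1001, 0.957% with docetaxel and 2.28% (1.82 to 2.82) with the combination, at a median depth of 2591 to 3669 UMIs against 5185 to 5737 in gated T cells. CD3-negative cells with Ncr1, a natural killer receptor gene, had a Trbv UMI in 1.31% to 2.56% of cells. No Trbv UMI was seen in 23 B cells of vehicle, which allows a share of up to 13.0%, and 1 of 18 B cells of docetaxel had 1.

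**Figure D1:**
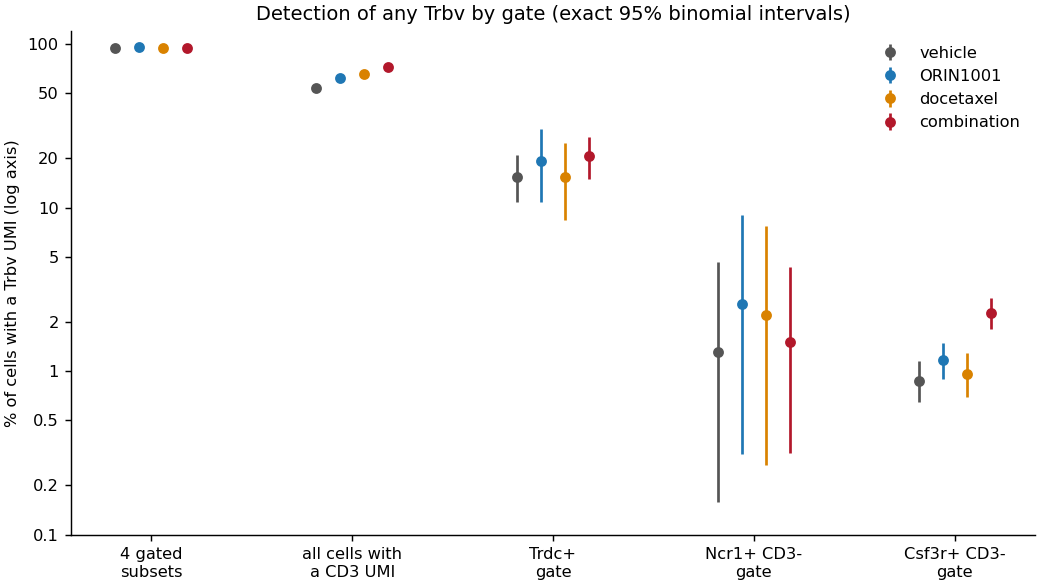
Share of cells with 1 or more Trbv UMIs (log axis, %) by gate, 1 point per library with exact 95% binomial intervals. The 4 gated subsets lie between 94.3% and 96.4%, the gate on Trdc between 15.3% and 20.7%, and Csf3r+ CD3-negative cells between 0.875% and 2.28%.

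Cells with Trdc, the constant gene of the delta chain, and no Cd4 or CD8 UMI are gamma-delta T cells by this gate, which assemble another receptor. A Trbv UMI was found in 15.3% (10.8 to 20.9) of 215 such cells in vehicle, 19.2% of 73 with ORIN1001, 15.3% of 85 with docetaxel and 20.7% of 184 with the combination. These shares lay above those of neutrophil-gated cells and far below those of the alpha-beta subsets, at median depths of 4948 to 6755 UMIs. Trbv26 was the most frequent Trbv in this gate in vehicle, in 5 of 31 assigned cells, and with ORIN1001, in 3 of 14, while only 3 of 4136 gated alpha-beta cells were assigned to it.

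The library kit named in the labels reads the 3' end of transcripts, and the V segment lies at the 5' end of the joined transcript. The gated cells nevertheless held 5942, 9024, 9718 and 23416 Trbv UMIs in vehicle, ORIN1001, docetaxel and combination, where Trbc2 gave 2014, 3100, 2859 and 7897 and Trbc1 gave 428, 682, 511 and 1373. The matrices hold no read positions, so where on the transcript these UMIs lie was not examined.

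Of the 35 Trbv genes, 22 are annotated as V genes and 13 as V pseudogenes, spread over chr6:40891229-41558452. UMIs of 24 of them were found in gated cells, and 22 were the leading Trbv of at least 1 of the 4136 assigned cells. Trbv21 is the only annotated V gene among the 11 with no UMI in gated cells. The pseudogenes led 4 cells, 0.0967% of all, and all 4 were assigned to Trbv24. Trbv31 sits alone beyond the constant genes on the minus strand, joins by inversion, and led between 2.99% and 4.75% of cells.

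Trbv13-2 had the highest mean share over the 4 libraries. Its share of assigned cells was 18.1% in vehicle, 14.2% with ORIN1001, 11.7% with docetaxel and 16.95% with the combination. Trbv19 followed with 7.21% in vehicle, 8.86% with ORIN1001, 13.0% with docetaxel and 19.4% with the combination. Trbv13-1 had 7.82%, 11.4%, 20.4% and 7.27% in the same order of libraries. Trbv19 was thus highest in the combination and Trbv13-1 highest with docetaxel, whereas Trbv13-3 stayed within 8.97% to 10.9%.

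The other 4 of the 8 most used segments were Trbv1, Trbv29, Trbv5 and Trbv4, with mean shares between 5.89% and 7.51%. Trbv1 had 8.59%, 8.86% and 8.64% in vehicle, ORIN1001 and docetaxel and 3.96% in the combination. Trbv4 went the other way, with 4.29%, 5.20% and 4.76% in those 3 libraries and 9.30% in the combination. Trbv29 ranged from 3.88% with docetaxel to 9.36% in vehicle, and Trbv5 from 4.76% with the combination to 9.66% in vehicle.

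In Havcr2-negative CD8 cells, the leading segment changed between libraries. Trbv13-2 led in vehicle with 85 of 352 cells, 24.1% (19.8 to 29.0), and with ORIN1001 with 60 of 334 cells, 17.96% (14 to 22.5). Trbv13-1 led with docetaxel, in 100 of 473 cells or 21.1% (17.6 to 25.1), and was at 8.52% to 11.7% in the other 3 libraries. Trbv19 led with the combination, in 253 of 874 cells or 28.9% (26.0 to 32.1). In the other libraries Trbv19 was at 6.82% in vehicle, 7.19% with ORIN1001 and 14.8% (11.7 to 18.3) with docetaxel. Its interval in the combination overlapped none of these.

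Smaller segments of Havcr2-negative CD8 cells also stood out in 1 library each. Trbv14 was in 44 of 334 cells with ORIN1001, 13.2% (9.74 to 17.3), and in 1.60% to 5.97% elsewhere. Trbv17 was in 7.40% (5.21 to 10.1) of cells with docetaxel and in 1.14% to 3.29% elsewhere. Trbv4 was in 10.1% (8.15 to 12.3) of cells with the combination and in 2.99% to 4.23% elsewhere.

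Havcr2-positive CD8 cells were fewer and were sequenced more deeply, with 10033 to 10930 median UMIs against 4749 to 5426 in Havcr2-negative cells. Macrophage genes (Csf1r, Cd68, C1qa, C1qb, Apoe) were all detected in both and summed to 1082, 146, 653 and 1270 CPM in Havcr2-positive cells of vehicle, ORIN1001, docetaxel and combination, against 145, 114, 139 and 235 CPM in Havcr2-negative cells. The part of depth and of these genes in the values was not tested. In vehicle Trbv13-2 led with 13 of 42 cells, 31.0% (17.6 to 47.1). With ORIN1001 Trbv13-3 led with 16 of 118 cells, 13.6% (7.95 to 21.1). With docetaxel Trbv13-1 led with 40 of 94 cells, 42.6% (32.4 to 53.2), the highest share of any Trbv in the 16 combinations of subset and library. In the other libraries Trbv13-1 held 7.14%, 11.9% and 5.21% of Havcr2-positive CD8 cells. With the combination Trbv13-2 led with 115 of 499 cells, 23.0% (19.4 to 27.0).

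The CD8 subsets of a library did not always use the same segments. In the combination, Trbv19 was in 28.9% of Havcr2-negative and 10.2% (7.70 to 13.2) of Havcr2-positive cells, while Trbv2 was in 4.23% (3.0 to 5.79) and 12.8% (10.0 to 16.1) and Trbv13-2 in 15.6% (13.2 to 18.1) and 23.0%. With docetaxel, Trbv13-1 was in 21.1% of Havcr2-negative and 42.6% of Havcr2-positive cells, while Trbv19 was at 14.8% and 14.9%. With ORIN1001, Trbv4 was in 2.99% (1.44 to 5.44) and 12.7% (7.29 to 20.1). None of the 42 Havcr2-positive cells of vehicle used Trbv19, which allows a share of up to 7.14%.

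**Figure D2:**
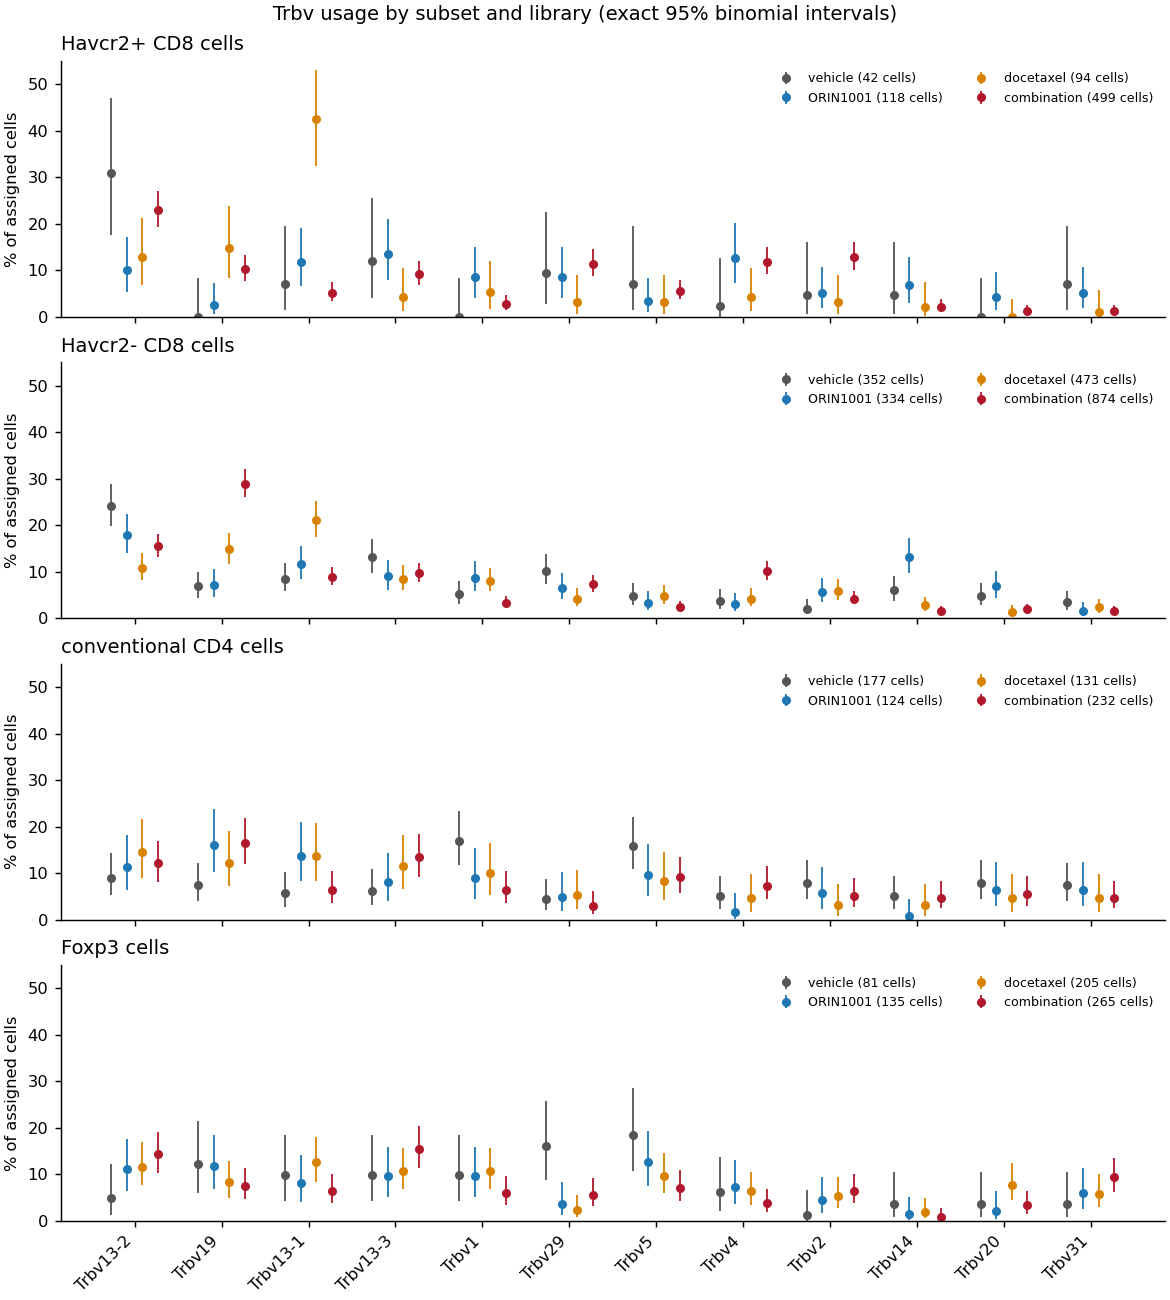
Share of assigned cells (%) for the 12 Trbv with the highest mean share, in each of the 4 subsets, 1 point per library with exact 95% binomial intervals and the number of assigned cells in the legends. Trbv19 reaches 28.9% in Havcr2-negative CD8 cells of the combination and Trbv13-1 reaches 42.6% in Havcr2-positive CD8 cells of docetaxel, while the highest share in conventional CD4 cells is 16.9%.

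The Trav segment with the most UMIs was added to each CD8 cell to describe which pairs recurred. A pair is not a clone, since cells of different clones can share both segments. The likeness of Trav segments to each other was not examined. The pair with the most cells was Trbv19 with Trav9-4, in 112 CD8 cells of the combination or 10.04% of those with both segments, of which 93 were Havcr2-negative and 19 Havcr2-positive. It was in 0 of 323 CD8 cells with both segments in vehicle, 0 of 365 with ORIN1001 and 0 of 469 with docetaxel, which allow shares of up to 0.929%, 0.822% and 0.640%. In Havcr2-negative cells of the combination, the product of the shares of Trbv19 and Trav9-4 would give 33.6 cells. All 98 CD8 cells of the pair that had more UMIs of 1 constant gene than of the other had Trbc2, and all 5 with a joining segment had Trbj2-1, which was in 24 of 72 CD8 cells of that library with a joining segment. In all CD8 cells of that library Trbc1 was the higher constant gene in 5.88%.

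Other pairs were likewise concentrated in 1 library. Trbv19 with Trav3-1 was in 46 CD8 cells of the combination and 0 of the other libraries. Trbv2 with Trav2 was in 42 CD8 cells of the combination and 3 of ORIN1001, and 38 of the 42 were Havcr2-positive, where the product of shares would give 7.75. Trbv4 with Trav16n was in 38 CD8 cells of the combination, 1 of vehicle and 1 of ORIN1001. Trbv13-2 with Trav9-1 was in 32 CD8 cells of the combination and at most 2 of any other library. The combination library had the most CD8 cells with both segments, 1115, so these counts are not set against an equal number of cells.

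In vehicle Trbv13-2 with Trav16n was in 39 CD8 cells, 12.1% (8.73 to 16.1) of those with both segments, and in 14, 11 and 5 CD8 cells of ORIN1001, docetaxel and combination. Trbv13-3 with Trav6-3 was in 20 CD8 cells of vehicle and 3 of the combination. With docetaxel Trbv13-1 with Trav6-3 was in 24 CD8 cells, 23 of them Havcr2-negative. The most frequent partner of the Havcr2-positive Trbv13-1 cells of docetaxel was Trav21-dv12, in 10 cells, where the product of shares would give 4.10. Trav12-1 was a partner of Trbv13-1 in both CD8 subsets of docetaxel, in 7 Havcr2-positive and 10 Havcr2-negative cells. With ORIN1001 the largest pair was Trbv14 with Trav9-2, in 19 CD8 cells. Some pairs occurred in all 4 libraries: Trbv13-2 with Trav3-3 was in 27, 14, 9 and 34 CD8 cells, where the product of shares would give 16.2 in vehicle and 12.6 with ORIN1001.

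**Figure D3:**
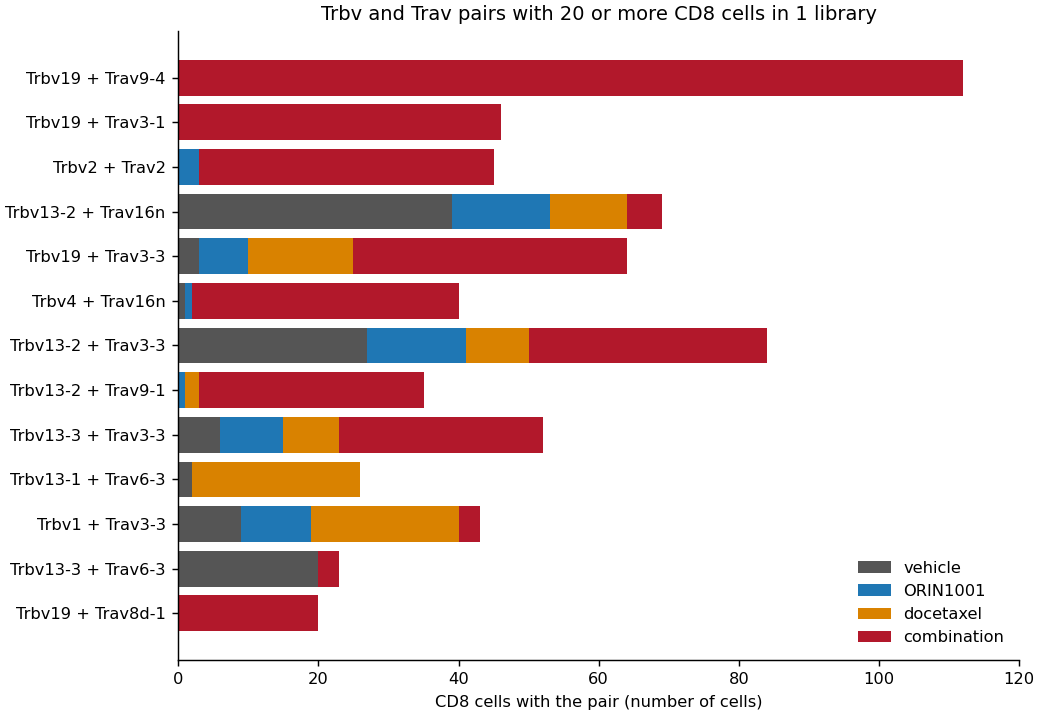
Number of CD8 cells (bars, stacked by library) for each Trbv and Trav pair with 20 or more CD8 cells in 1 library. Trbv19 with Trav9-4 reaches 112 cells in the combination alone, while Trbv13-2 with Trav3-3 is made of cells from all 4 libraries.

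Pairing beyond the product of shares was seen in most subsets. The chance that a pair of CD8 cells drawn from a library share both Trbv and Trav was 3.25 times the product of the separate chances in vehicle, 2.05 times with ORIN1001, 1.995 times with docetaxel and 2.93 times with the combination. In conventional CD4 cells the ratio was 4.06, 1.49, 1.01 and 1.85 in the same order, and in Foxp3 cells 5.04, 2.69, 3.01 and 1.51. The ratios of CD4 and Foxp3 cells in vehicle rest on 134 and 66 cells with both segments. A Trav UMI was found in 83.3% to 95.9% of the cells of a subset and library.

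Leaving out the cells of the largest pair of each subset and library, a choice made after seeing the data, lowered several leading shares. Such a drop is fixed in advance where the pair holds the leading Trbv, and only its size is informative. Where the pair held another Trbv the leading share rose, as for Trbv5 in Foxp3 cells of vehicle, from 18.5% to 20.8%. Trbv19 in Havcr2-negative CD8 cells of the combination was then at 20.5% in place of 28.9%, Trbv13-2 in Havcr2-negative CD8 cells of vehicle at 16.6% in place of 24.1%, and Trbv13-2 in the 35 remaining Havcr2-positive CD8 cells of vehicle at 17.1% in place of 31.0%. Trbv13-1 in Havcr2-positive CD8 cells of docetaxel was at 35.7% in place of 42.6%. Each of these still led its subset, but Trbv19 no longer led conventional CD4 cells of ORIN1001 (12.6%, behind Trbv13-1) nor Trbv13-3 Foxp3 cells of the combination (12.8%, behind Trbv13-2). Over all CD8 cells of the combination, Trbv19 went from 22.1% to 15.2%, behind Trbv13-2.

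Cells of the large pairs of the combination differed in the genes that mark CD8 states, given here as CPM of summed UMIs with exact Poisson intervals, which cover counting only. Gzmk, which encodes granzyme K, was at 1001 CPM (935 to 1070) in the 112 cells of Trbv19 with Trav9-4 and at 455 CPM (443 to 467) in the other 1336 CD8 cells of the library. The CD8 genes themselves were lower in the pair. Cd8a was at 1102 CPM (1034 to 1174) and 1288 CPM (1268 to 1308), and Cd8b1 at 768 CPM (711 to 829) and 1205 CPM (1186 to 1225). Pdcd1, which encodes the inhibitory receptor PD-1, was at 271 CPM (237 to 308) and 573 CPM (560 to 587), and the inhibitory receptor gene Lag3 at 194 CPM (165 to 225) and 495 CPM (483 to 508). Trbv19 with Trav3-1 went the same way, with Gzmk at 1155 CPM against 476 CPM and Pdcd1 at 241 CPM against 560 CPM.

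In the 42 cells of Trbv2 with Trav2 the genes Gzmk, Pdcd1 and Lag3 went the other way. Pdcd1 was at 890 CPM (807 to 979) against 540 CPM (527 to 553) in the other 1406 CD8 cells, Lag3 at 919 CPM (835 to 1009) against 458 CPM (446 to 470), and Gzmk at 309 CPM (261 to 363) against 499 CPM (486 to 511). Nkg7, a gene of cytotoxic granules, was higher in both, at 4803 CPM (4609 to 5004) against 3181 CPM (3150 to 3213) for Trbv2 with Trav2 and at 3457 CPM (3334 to 3583) against 3226 CPM (3194 to 3258) for Trbv19 with Trav9-4. Cd8a and Cd8b1 were higher in the Trbv2 with Trav2 cells, at 1889 CPM (1768 to 2016) against 1252 CPM (1232 to 1272) and 1692 CPM (1578 to 1813) against 1156 CPM (1137 to 1175). Havcr2 was at 313 CPM (265 to 368) against 133 CPM (127 to 140). The median depth of the Trbv2 with Trav2 cells was 9411 UMIs against 5848 in the other CD8 cells. The part of depth and of the Havcr2 split in these values was not tested. In vehicle, the 39 cells of Trbv13-2 with Trav16n had Gzmk at 1151 CPM (1032 to 1279) against 704 CPM (672 to 737) and Pdcd1 at 40.3 CPM (20.8 to 70.3) against 109 CPM (96.6 to 122). Lag3 was also lower in the pair, at 36.9 CPM (18.4 to 66.0) against 91.5 CPM (80.2 to 104), while Entpd1, which encodes the ectonucleotidase CD39, was higher, at 144 CPM (104 to 194) against 76.0 CPM (65.7 to 87.4). Havcr2 was at 47.0 CPM (25.7 to 78.8) against 24.0 CPM (18.4 to 30.8), and the intervals overlapped. These cells come from 1 library each, so no test was made.

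In conventional CD4 cells no Trbv went above 16.9%. Trbv1 led in vehicle with 30 of 177 cells, 16.9% (11.7 to 23.3), closely followed by Trbv5 with 28. Trbv19 led with ORIN1001 with 20 of 124 cells, 16.1% (10.1 to 23.8), and with the combination with 38 of 232 cells, 16.4% (11.9 to 21.8). Trbv13-2 led with docetaxel with 19 of 131 cells, 14.5% (8.96 to 21.7). In each library the interval of the leader overlapped that of the runner-up. The 11 cells of Trbv1 with Trav9-4 in vehicle were the largest CD4 pair, and without them Trbv1 was at 11.4% and Trbv5 led.

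In Foxp3 cells Trbv5 led in vehicle with 15 of 81 cells, 18.5% (10.7 to 28.7), and with ORIN1001 with 17 of 135 cells, 12.6% (7.51 to 19.4). Trbv13-1 led with docetaxel with 26 of 205 cells, 12.7% (8.45 to 18.03), and Trbv13-3 with the combination with 41 of 265 cells, 15.5% (11.3 to 20.4). Trbv29 was in 13 of 81 Foxp3 cells of vehicle, 16.05% (8.83 to 25.9), and in 2.44% to 5.66% elsewhere, and 9 of the 12 with a Trav had Trav1. Trbv31 with Trav8n-2 was the largest Foxp3 pair, in 10 cells of docetaxel where the product of shares would give 0.948.

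Trbv17, singled out after its values were seen, was split between libraries in Foxp3 cells. It was in 0 of 81 cells of vehicle, which allows up to 3.70%, and 0 of 205 cells of docetaxel, which allows up to 1.46%. It was in 9 of 135 cells with ORIN1001, 6.67% (3.09 to 12.3), and in 26 of 265 cells with the combination, 9.81% (6.51 to 14.04). The 17 combination cells with a Trav used 12 different Trav, and none was in more than 3 cells, while the 9 ORIN1001 cells used 5 Trav, with Trav14d-3-dv8 in 4. In conventional CD4 cells Trbv17 was in 0 of 177, 6 of 124, 2 of 131 and 5 of 232 cells of vehicle, ORIN1001, docetaxel and combination.

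Evenness was measured as the effective number of Trbv, the inverse of the chance that a pair of cells drawn from a subset share their Trbv. In Havcr2-positive CD8 cells it was 8.05 in vehicle, 12.3 with ORIN1001, 4.497 with docetaxel and 8.23 with the combination. In Havcr2-negative CD8 cells it was 9.06, 10.3, 9.32 and 6.91 in the same order. Conventional CD4 cells kept within 10.6 to 11.2 in all 4 libraries, and Foxp3 cells had 9.61 in vehicle, 12.7 with ORIN1001, 11.9 with docetaxel and 11.3 with the combination. The lowest values were those of docetaxel in Havcr2-positive and of the combination in Havcr2-negative CD8 cells, and the ORIN1001 library had the highest value in 3 of the 4 subsets.

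Over the 4 libraries, CD8 cells as a whole had 9.10 ± 1.42 effective Trbv (SD, n = 4) and conventional CD4 cells 11.001 ± 0.290. The mean difference was -1.90, with CD8 lower in 3 of 4 libraries and p = 0.25 in an exact two-sided paired permutation test, 0.75 after Benjamini-Hochberg adjustment over 3 comparisons. Havcr2-positive and Havcr2-negative CD8 cells differed by -0.633 (exact permutation p = 0.875, lower in 2 of 4) and Foxp3 and conventional CD4 cells by 0.384 (exact permutation p = 0.625, lower in 1 of 4). With 4 libraries the smallest p this test can give is 2 of 16 sign patterns, so none could pass 0.05.

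**Figure D4:**
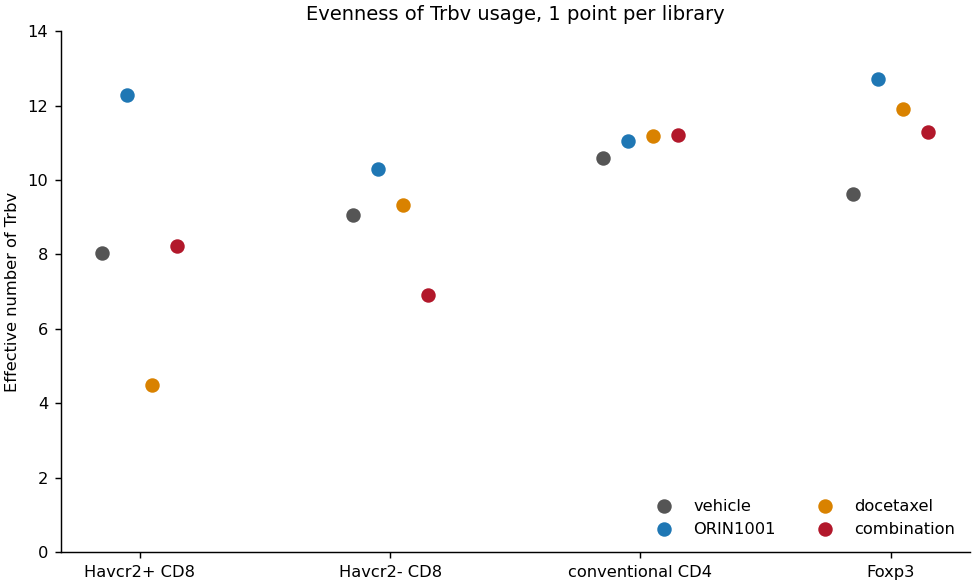
Effective number of Trbv in each subset, 1 point per library. Conventional CD4 cells lie between 10.6 and 11.2, whereas Havcr2-positive CD8 cells run from 4.497 with docetaxel to 12.3 with ORIN1001.

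The number of segments used told less than their shares. In a fixed number of 42 Havcr2-positive CD8 cells, 13.0, 13.3, 10.3 and 11.1 different Trbv were expected in vehicle, ORIN1001, docetaxel and combination. The 3 most used Trbv together held 52.4%, 38.1%, 70.2% and 47.7% of these cells. In conventional CD4 cells the 3 most used held 40.5% to 41.8% in every library.

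Similarity of usage was given as the Morisita overlap, which compares the chance of a shared Trbv between and within sets of cells and is near 1 for equal usage. Between libraries it ran from 0.869 to 1.03 in conventional CD4 cells, 0.774 to 0.989 in Foxp3 cells, 0.712 to 0.942 in Havcr2-negative and 0.497 to 0.916 in Havcr2-positive CD8 cells. Within a library conventional CD4 and Foxp3 cells overlapped at 0.909 to 1.02, and the CD8 subsets at 0.812 to 1.02. Havcr2-positive CD8 and Foxp3 cells of the same library overlapped at 0.605 to 0.895. These are descriptions of 6 pairs of libraries or 4 libraries each, with no test.

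Differences between subsets that recur over libraries were tested on UMIs summed by subset and library, with edgeR's quasi-likelihood test on all genes, the library as a block and Benjamini-Hochberg adjustment. Values are CPM of all UMIs in the subset, so they combine how many cells use a segment with how much RNA each holds. CPM alone does not tell these apart. Of the 35 Trbv, 24 had UMIs in CD8 cells and 17 passed the low-count filter in the comparison with conventional CD4 cells. Of those 17, 2 were higher and 2 lower in CD8 cells, where 12.5% of all 9783 genes tested passed in either direction, 5.57% higher and 6.92% lower. The median log2 fold change was -0.14 over the 17 Trbv and -0.00 over all genes.

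Trbv5 was lower in CD8 cells in all 4 libraries. It was at 30.9, 29.0, 24.1 and 35.1 CPM in CD8 cells of vehicle, ORIN1001, docetaxel and combination, and at 89.8, 95.3, 75.4 and 69.2 CPM in conventional CD4 cells. The groups did not overlap, and the log2 fold change was -1.38 ± 0.14 (SE, edgeR adjusted p = 0.000474). The share of cells went the same way, 3.32% to 5.08% of CD8 cells against 8.40% to 15.8% of conventional CD4 cells. Trbv31 was at 34.8, 53.1, 32.2 and 25.2 CPM in CD8 cells and 61.1, 76.2, 49.5 and 65.2 CPM in conventional CD4 cells. It was lower in CD8 cells within each library although the groups overlapped (log2 fold change -0.81 ± 0.15, edgeR adjusted p = 0.00885), and it did not pass without the condition on myeloid and B cell markers (adjusted p = 0.0568) or without the library block (adjusted p = 0.0619).

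Trbv16 was higher in CD8 cells, at 32.0, 21.8, 41.0 and 15.5 CPM against 12.1, 2.24, 1.18 and 9.98 CPM in conventional CD4 cells. The groups did not overlap (log2 fold change 1.90 ± 0.44, edgeR adjusted p = 0.0246), and the call ended without the ORIN1001 library (adjusted p = 0.0719), without docetaxel (adjusted p = 0.0594) or without the marker condition (adjusted p = 0.0564). Only 69.0% of its 565 CD8 UMIs lay in cells that it led, and it led 2 of 567 CD8 cells of docetaxel. Trbv3 was at 11.1, 63.9, 34.0 and 27.8 CPM in CD8 and 1.51, 21.3, 10.6 and 26.6 CPM in conventional CD4 cells (log2 fold change 1.14 ± 0.32, edgeR adjusted p = 0.0462). In the combination these values were close together, and the groups overlapped. The edgeR call ended without vehicle (adjusted p = 0.0677), without ORIN1001 (adjusted p = 0.197) or without docetaxel (adjusted p = 0.165), as well as without the block (adjusted p = 0.254) or the marker condition (adjusted p = 0.0556).

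**Figure D5:**
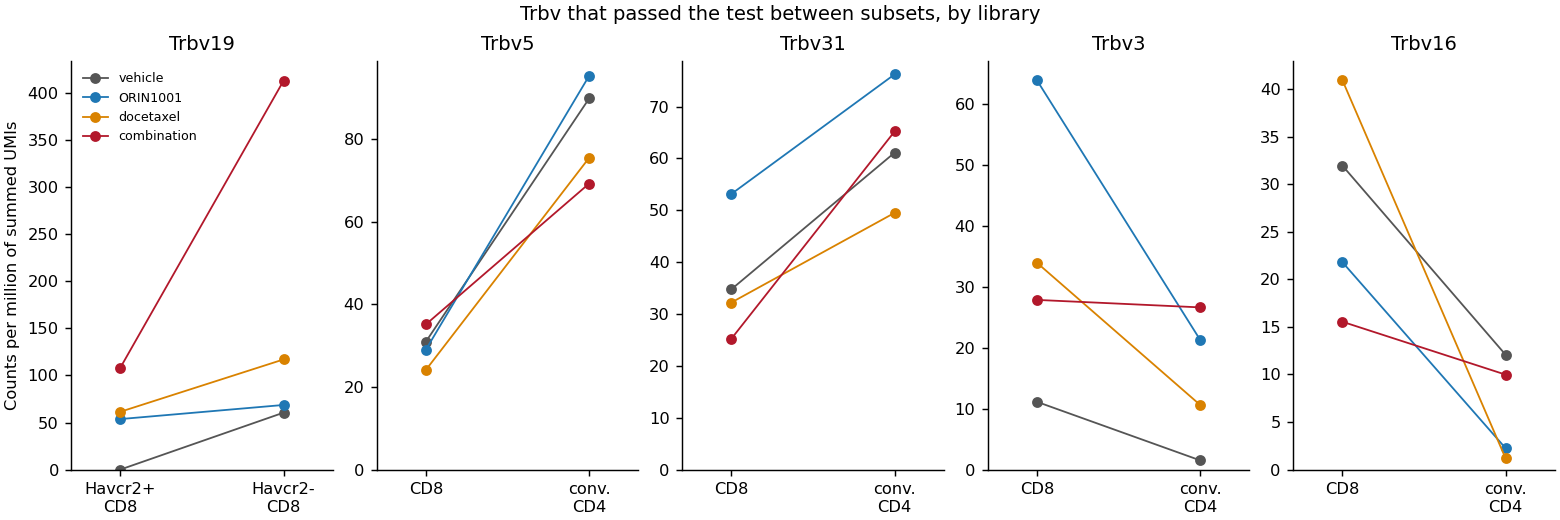
CPM of summed UMIs for the 5 Trbv that passed the edgeR test (adjusted p under 0.05) between Havcr2-positive and Havcr2-negative CD8 cells (Trbv19) or between CD8 and conventional CD4 cells (the other 4), with a line per library and axes that start at 0. Trbv5 lies at 24.1 to 35.1 CPM in CD8 and 69.2 to 95.3 CPM in conventional CD4 cells, while the drop of Trbv19 is largest in the combination.

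Between the CD8 subsets, 24 Trbv had UMIs, 16 were tested, 0 were higher and 1 was lower in Havcr2-positive cells by edgeR (2 at an unadjusted p under 0.05), where 21.9% of 9668 genes passed in either direction. Trbv19 was at 0, 53.7, 61.4 and 108 CPM in Havcr2-positive cells of vehicle, ORIN1001, docetaxel and combination, where 3 UMIs in vehicle would be 5.32 CPM, and at 60.5, 68.7, 117 and 414 CPM in Havcr2-negative cells. The groups overlapped but every library was lower in Havcr2-positive cells (log2 fold change -1.41 ± 0.35, edgeR adjusted p = 0.0246). The call ended with DESeq2 (adjusted p = 0.222), which called Trbv1 lower instead and no Trbv higher, without the library block (adjusted p = 0.201), without the docetaxel library (adjusted p = 0.0544) and without the combination library (log2 fold change -1.08, adjusted p = 0.197). By share of cells Trbv19 was lower in 3 of 4 libraries.

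Summed Trbv UMIs were at a lower level in Foxp3 than in conventional CD4 cells. All Trbv together were at 835, 1195, 896 and 1252 CPM in Foxp3 cells of vehicle, ORIN1001, docetaxel and combination. In conventional CD4 cells they were at 1240.5, 1595, 1419 and 1591 CPM, so Foxp3 cells were lower within each library. Foxp3 cells with a Trbv UMI held on average 8.25, 7.89, 7.01 and 7.77 of them in the same order. Such conventional CD4 cells held 9.18, 11.4, 9.19 and 10.1. A Trbv UMI was found in 90.2%, 95.9%, 88.8% and 92.1% of Foxp3 cells and 97.3%, 92.6%, 94.9% and 94.0% of conventional CD4 cells. Of 17 Trbv tested among the 22 with UMIs, 0 were higher and 8 lower by edgeR (11 at an unadjusted p under 0.05 in either direction; DESeq2 called 6, all lower), where 6.24% of all 8733 genes were higher, 5.91% lower and 12.1% either. The conventional CD4 samples are the same as in the comparison with CD8 cells. The 8 were Trbv13-1, Trbv13-2, Trbv13-3, Trbv19, Trbv15, Trbv12-2, Trbv31 and Trbv20, with log2 fold changes from -1.995 (Trbv12-2) to -0.59 (Trbv31). Over all 17 Trbv tested the median log2 fold change was -0.62, against -0.01 over all genes. Trbv31 and Trbv13-3 (-0.61) lay near the median of the 17. Of the Trbv12-2 UMIs, 0 of 76 in conventional CD4 cells and 4 of 22 in Foxp3 cells lay in cells that it led. Its call thus rests mostly on UMIs in cells assigned to another Trbv. For Trbv15, 46 of 88 UMIs in conventional CD4 cells and 16 of 34 in Foxp3 cells lay in cells that it led.

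Trbv19 may serve as the example, with 67.0, 99.3, 65.7 and 76.4 CPM in Foxp3 cells and 80.7, 217, 157 and 194 CPM in conventional CD4 cells of vehicle, ORIN1001, docetaxel and combination. The drop was small in vehicle and large in the other 3 libraries (log2 fold change -1.12 ± 0.15, edgeR adjusted p = 0.000702). Trbv13-1 was at 86.5, 107, 140 and 67.3 CPM against 115, 224, 244 and 151 CPM (log2 fold change -0.94 ± 0.13, edgeR adjusted p = 0.000697). By CPM both segments were lower in Foxp3 cells of all 4 libraries, as were 5 of the other 6, while Trbv20 was lower in 3. The CPM values of Trbv19 and Trbv13-1 overlapped between the groups. By share of assigned cells, the Trbv13 family held 24.7% of Foxp3 and 20.9% of conventional CD4 cells in vehicle, and 36.2% and 31.9% with the combination. With ORIN1001 it held 28.9% and 33.1%, and with docetaxel 35.1% and 39.7%, so the direction by share differed between libraries. Without the library block, 2 of the 8 passed, Trbv19 and Trbv12-2. Trbv20 and Trbv31 did not pass with DESeq2 (adjusted p = 0.0719 and 0.261). Leaving out 1 library ended the edgeR call of Trbv13-3 (adjusted p = 0.0617 without ORIN1001, 0.105 without docetaxel), of Trbv20 (0.0977 without vehicle, 0.0633 without ORIN1001, 0.194 without the combination) and of Trbv31 (0.0644 without vehicle, 0.0898 without docetaxel). Trbv15 gave no value without docetaxel or without the combination, while Trbv4 (without ORIN1001) and Trbv14 (without ORIN1001 or docetaxel) were called then.

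The constant genes moved with the V segments in Foxp3 cells. Trbc2 fell by 0.65 on the log2 scale and Trbc1 by 0.66 (edgeR adjusted p = 0.00154 and 0.0204), while the alpha constant gene Trac did not pass (adjusted p = 0.996). Of a list of 15 receptor and signalling genes, 6 were lower and 0 higher in Foxp3 cells, where 5.91% of all genes were lower and 6.24% higher: besides Trbc1 and Trbc2, these were Cd247, the zeta chain of the receptor complex, the costimulatory receptor Cd28, the kinase Zap70 and the adaptor Lat. Their log2 fold changes ran from -0.86 (Cd28) to -0.45 (Zap70), and the median over the list was -0.27 against -0.01 over all genes.

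In the comparison of CD8 with conventional CD4 cells 3 of the 15 were higher (Cd3d, Cd3e and the phosphatase Ptpn22) and 4 lower (Cd247, Cd28, Lcp2 and Zap70), where 5.57% of all genes were higher and 6.92% lower, and neither Trac nor Trbc1 nor Trbc2 passed. In Havcr2-positive against Havcr2-negative CD8 cells 8 were lower by edgeR, Lck, Lat, Fyn, Cd28, Ptpn22, Cd3d, Cd247 and Cd3e, and 0 higher, where 11.0% of all genes were lower and 10.9% higher. The macrophage genes given above were higher on the same side, and their part in these values was not tested. The gates use the UMIs of Cd3d, Cd3e and Cd3g, so the values of Cd3d and Cd3e in these comparisons are a description only.

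Segments that are targets of endogenous superantigens in BALB/c mice (Trbv26, Trbv12-1, Trbv12-2, Trbv15 and Trbv16) were rare in every library. Together they led 3.22% (2.005 to 4.88) of gated cells in vehicle, 1.69% (0.875 to 2.93) with ORIN1001, 1.66% (0.933 to 2.73) with docetaxel and 1.76% (1.22 to 2.47) with the combination. These intervals overlapped. By subset they led 0% to 1.72% of conventional CD4 cells and 0% to 5.37% of Foxp3 cells, the latter in 11 of 205 cells of docetaxel. In Havcr2-positive CD8 cells they were in 4 of 42 cells of vehicle, 9.52% (2.66 to 22.6), and in 0% to 1.002% elsewhere. In Havcr2-negative CD8 cells they were in 4.26% (2.404 to 6.93) of cells of vehicle and 0.423% (0.0512 to 1.52) of docetaxel. Trbv16 made up 50 of the list's cells, Trbv15 15, Trbv12-1 8, Trbv12-2 5 and Trbv26 3. Rarity was not particular to the list, since the V genes Trbv3, Trbv30, Trbv23 and Trbv21 led 48, 5, 1 and 0 gated cells.

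Trbv12-2, described as a second Trbv after its values were seen, had 447 UMIs in gated cells and led 5 cells, and of its 349 UMIs in CD8 cells 1.43% lay in cells that it led. It was the second Trbv in 120 of the 642 cells led by Trbv13-2, 18.7%, and the gene ends 2031 bases before Trbv13-2 begins on the same strand. The stretch of Trbv12-2 up to the cysteine codon (chr6:41119263-41119352, plus strand, codon in capitals) is shown because it shares no stretch of 50 bases with Trbv13-2.
Trbv12-2: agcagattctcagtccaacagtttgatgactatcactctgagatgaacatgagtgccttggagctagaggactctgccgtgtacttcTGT

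A second Trbv was found in 1299 of the 4136 assigned cells, 31.4%, and had only 1 UMI in 54.3% of them. The most frequent pair besides Trbv13-2 with Trbv12-2 was Trbv13-3 with Trbv13-2 as second, in 108 of 423 cells or 25.5%, and Trbv14 had Trbv13-2 as second in 43 of 151 cells, 28.5%. Trbv19 had Trbv13-2 as second in 68 of 589 cells, 11.5%. In these pairs the second lies upstream of the first. Trbv13-1 had Trbv16, which lies downstream of it, as second in 38 of 452 cells, 8.41%. Joining removes the segments between the chosen V and the rest of the locus and leaves those upstream in place. In 1135 cells with an untied second Trbv and without Trbv31, the second lay upstream of the first in 66.2% (63.3 to 68.9), where the usage of all segments in the same libraries would give 53.7%. The share was 75.3%, 66.7%, 58.3% and 66.9% in vehicle, ORIN1001, docetaxel and combination, against 56.4%, 56.1%, 53.9% and 51.7% from usage. Where the second Trbv had 5 or more UMIs, in 141 cells, it was 47.5% (39.1 to 56.1) against 45.6% from usage. In the 1000 cells whose first and second Trbv were not both of the Trbv13 family, it was 63.5% (60.4 to 66.5) against 53.3%. Trbv12-2 led only 5 cells, so usage gives it little weight. It was the second in 120 cells of Trbv13-2, 25 of Trbv13-3, 21 of Trbv19 and 17 of Trbv14, all downstream of it. Its part in the upstream share was not tested.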

How the data were processed

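The deposited matrices hold whole-number UMI counts, not normalized, of 4 libraries, made by the authors with Cell Ranger (software version 5.0.1 per the file headers) on mm10, per the submitters' processing notes, which also name Seurat 4.0.1; the annotation release and the treatment of multi-mapping reads are not given in the sources used here. Cells with at least 200 genes and under 10% mitochondrial UMIs were kept, and doublets were removed with Scrublet in scanpy 1.11.5 (1.27% to 2.0% of cells, and 7.01% of ORIN1001, where its automatic threshold marked 0% and the top scores at 0.8% per 1000 cells were taken instead). Each gated cell was assigned to the Trbv with the most UMIs, and tied cells (7 to 30 per library) were left out. Total UMIs per library were 64257802 to 86383509.

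UMIs summed by subset and library were tested on all genes that passed filterByExpr with edgeR 4.0.16 (glmQLFit, glmQLFTest, TMM, library as block, adjusted p under 0.05). The script was tested on simulated data. Alternatives were DESeq2 1.42.0, RLE scaling, other filters, gates and assignments, and leaving out each library. Libraries are 1 per treatment, so treatments were not tested. Intervals cover counting error only.

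Text names the 8 most used Trbv, the leading Trbv and its top Trav pair by subset and library, the superantigen and Trbv13 and Trbv12 families, and Trbv or receptor-list genes with adjusted p under 0.05; pairs of 20 or more CD8 cells, Trbv14, Trbv17 and the second Trbv were added after values were seen. One gene was left out of the receptor list and is not reported here. The members and lists were chosen with earlier results of these data known. Of the deposited columns, 0 were unmapped. Sequences are from GENCODE M21 on GRCm38/mm10.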

Additional observations from a re-analysis of the deposited data

Results flagged for a closer look

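In 6 cases the share of a Trbv differed between Havcr2-positive and Havcr2-negative CD8 cells of 1 library with intervals that did not overlap, while at least 1 other library went the other way. With the combination, the difference (Havcr2-positive minus Havcr2-negative) was 8.59 percentage points for Trbv2, 7.49 for Trbv13-2, 3.21 for Trbv5 and -18.7 for Trbv19. With docetaxel it was 21.4 percentage points for Trbv13-1, and with ORIN1001 it was 9.72 for Trbv4. Whether these differences vary between treatments was not tested, because each treatment is 1 library. Of Csf3r+ CD3-negative cells, which were outside the comparisons, 2.28% had a Trbv UMI with the combination, above the 0.875% of vehicle. Among those with an assigned Trbv, Trbv1 was in 42.9% in vehicle, 34.4% with ORIN1001, 52.4% with docetaxel and 20.7% with the combination, where it led 8.59%, 8.86%, 8.64% and 3.96% of gated T cells.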

How the results depend on the processing

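Between treatments, no paired analysis was possible because each treatment group holds 1 library. The tests between subsets were paired by library, which was a block in the fits. Without that block the number of Trbv called was 0 in place of 1 between the CD8 subsets, 2 in place of 4 between CD8 and conventional CD4 cells and 2 in place of 8 between Foxp3 and conventional CD4 cells. Without a filter on low counts it was 7, 11 and 13, and without the marker condition 1 between CD8 and conventional CD4 cells. Leaving out each library gave 0 to 3 between the CD8 subsets (3 without ORIN1001, 0 without the combination), 3 to 5 between CD8 and conventional CD4 cells, and 6 to 8 for Foxp3 cells; the cause was not tested.

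Of 128 values of a leading share under alternatives, 120 stayed within the interval and the same Trbv led in 112. By share of Trbv UMIs, Trbv13-1 in Havcr2-positive CD8 cells of docetaxel was 60.3%, with an effective number of 2.62, Trbv1 in conventional CD4 cells of vehicle was 23.5%, and Trbv5 in Foxp3 cells of vehicle 8.76%. Without the cells of the largest Trbv and Trav pair, chosen after seeing the data, leading shares were 17.1% (Trbv13-2, Havcr2-positive, vehicle), 16.6% (Trbv13-2, Havcr2-negative, vehicle), 17.1% (Trbv13-1, Havcr2-negative, docetaxel), 20.5% (Trbv19, Havcr2-negative, combination, effective number 8.45) and 11.4% (Trbv1, conventional CD4, vehicle). The mean difference in evenness changed sign between the CD8 subsets with Shannon evenness (0.0138), and between Foxp3 and conventional CD4 cells by UMI share (-1.25), with Shannon evenness (-0.00753) and without the largest pair (-0.211). At a fixed depth of 1000 UMIs a Trbv UMI was found in 64.9%, 69.98%, 67.8% and 70.8% of gated cells of vehicle, ORIN1001, docetaxel and combination. Of 128 log2 fold changes of a called Trbv, 97 kept their call, 31 lost it and 0 changed sign. Trbv5 kept its call under all 10 alternatives. The 42 Havcr2-positive CD8 cells of vehicle limit its shares most.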
